A study of Homo sapiens with 9 samples.

Results

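The alpha and beta tubulin genes TUBA1A, TUBA1B, TUBA1C, TUBA4A, TUBB, TUBB2A, TUBB2B, TUBB3, TUBB4B and TUBB6 were followed through 9 RNA sequencing libraries of SW620 cells. They were taken by symbol from a table of raw read counts with 28307 genes. All 10 were in the table, and all 10 passed the filter on low counts that left 15619 genes for testing. The members were chosen by a rule on their CPM that sets the libraries numbered 1 against those numbered 2 and 3, and then compares the treatments within each number, with earlier results of these libraries known. Both kinds of difference are therefore given for the 10 genes as a description, with an error. Counts of members called between treatments stand beside the share of all genes, and nothing is read from them.

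SW620 is an established human cell line that was derived from a metastatic colon adenocarcinoma, and it is labelled wild type here. The cells were kept in suspension on low-attachment plastic, with N2 supplement, glucose, insulin, basic FGF and EGF in the medium. One group received 120 µM streptomycin (SM) for 48 h, a second 120 µM dihydrostreptomycin (DSM) for 48 h, and the third, untreated, neither compound. Each group had 3 libraries, numbered 1 to 3. SM is an aminoglycoside antibiotic against bacterial ribosomes, and in DSM the aldehyde of SM is reduced to an alcohol. The design text calls the replicates biological, but the labels do not say what libraries of the same number share. P-values therefore measure the spread between these 9 libraries of 1 cell line. Read totals lay between 39315662 and 65562227 per library. Values are CPM, the reads of a gene scaled to its library's total, with TMM factors that allow for differences in composition. In bulk RNA fewer cells with a transcript and less of it per cell cannot be told apart.

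Alpha and beta tubulin pair into the dimer from which microtubules are built, and each is encoded by several genes, called isotypes. Newly made tubulin is folded by prefoldin, the CCT chaperonin and the tubulin cofactors before it can polymerise. Cells also tune tubulin messages to the pool of free dimer: TTC5 binds the first residues of a nascent tubulin on the ribosome and, with SCAPER and the CCR4-NOT deadenylase, sets off decay of the message. TUBA1A and TUBB3 are best known from neurons, whereas TUBA1B, TUBA1C, TUBB and TUBB4B are made in most dividing cells.

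The start of each coding sequence is shown because it encodes the residues that TTC5 reads. Capitals mark codons 2 to 4, and the sequences come from GENCODE transcripts of the GRCh38 genome.
TUBA1A: atgCGTGAGTGC
TUBA1B: atgCGTGAGTGC
TUBA1C: atgCGTGAGTGC
TUBA4A: atgCGTGAATGC
TUBB: atgAGGGAAATC
TUBB4B: atgAGGGAAATC
TUBB3: atgAGGGAGATC
TUBB6: atgAGGGAGATC
TUBB2A: atgCGCGAGATC
TUBB2B: atgCGTGAGATC
The alpha starts encode methionine, arginine, glutamate and cysteine, and the beta starts end in isoleucine in place of cysteine. All 10 members carry the recognised start, and its part in the values that follow was not tested.

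TUBA1B, TUBA1A and TUBA1C lie on chromosome 12 of GRCh38.p14, at 49127782 to 49131395 and 49184795 to 49189080 on the minus strand and at 49227926 to 49274600 on the plus strand. TUBA4A lies on chromosome 2 at 219249710 to 219254740, minus strand, overlapping STK16 and TUBA4B. On chromosome 6, TUBB lies at 30720352 to 30725422 on the plus strand, TUBB2A at 3153666 to 3157544 and TUBB2B at 3224277 to 3227653, both on the minus strand. TUBB3 lies on chromosome 16 at 89921925 to 89936097, plus strand. TUBB4B lies on chromosome 9 at 137241287 to 137243707, plus strand, overlapping CIMIP2A, and TUBB6 on chromosome 18 at 12307669 to 12329826, plus strand, overlapping AFG3L2.

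The isotypes resemble each other closely, so some reads could have been assigned to the wrong copy. Coding sequences were 84.4% to 97.2% identical among the 4 alpha genes and 80.9% to 98.2% identical among the 6 beta genes. TUBA1A and TUBA1B shared an unbroken run of 221 transcript bases, and TUBB2A and TUBB2B one of 725. How the authors counted reads that map to several places is not given in the sources used here. Values of the low members TUBA1A, TUBB2A and TUBB2B beside their near copies are uncertain.

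The promoters of the neighbours TUBA1A and TUBA1B are shown because their coding sequences are 97.2% identical while their messages behaved differently in these libraries. Each is the 250 bases before the RefSeq start, on the minus strand of GRCh38.p14, at chr12:49189081-49189330 for TUBA1A and chr12:49131396-49131645 for TUBA1B. Capitals mark CCAAT as well as GGGCGG and also TATAAA, each on either strand, and overlapping matches run together.
TUBA1A: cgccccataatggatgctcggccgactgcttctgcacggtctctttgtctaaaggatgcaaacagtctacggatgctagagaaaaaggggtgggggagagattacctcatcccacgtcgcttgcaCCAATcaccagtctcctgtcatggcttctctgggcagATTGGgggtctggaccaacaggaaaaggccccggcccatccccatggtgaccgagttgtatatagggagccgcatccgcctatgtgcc
TUBA1B: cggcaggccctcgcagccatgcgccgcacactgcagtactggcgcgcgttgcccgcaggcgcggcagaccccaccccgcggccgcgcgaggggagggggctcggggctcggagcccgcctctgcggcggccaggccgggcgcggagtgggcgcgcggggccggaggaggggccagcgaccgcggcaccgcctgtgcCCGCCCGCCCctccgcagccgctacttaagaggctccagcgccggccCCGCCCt
The TUBA1A window held 2 CCAAT matches and 0 GGGCGG matches, and the TUBA1B window 0 CCAAT matches and 3 GGGCGG matches, a pair of which overlap. Of the 15 such windows of the 10 members, some of which belong to the same gene, 9 held CCAAT and 9 held GGGCGG. Of all human promoter windows of this length, 35116 in number, 32.01% held CCAAT and 42.6% held GGGCGG. A match is a description of the letters only. TATAAA was in 1 of the 15 windows, at TUBB2A, and in 10.7% of all windows.

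Per length, 3 of the 10 genes supplied most of the tubulin message. In untreated cells TUBA1B made up 77.7% ± 0.509 of the alpha message, TUBA1C 15.9% ± 0.501, TUBA4A 5.9995% ± 0.0775 and TUBA1A 0.444% ± 0.290 (SD, n = 3), as shares of CPM per kilobase of exon. TUBB4B supplied 47.9% ± 1.37 and TUBB 46.5% ± 0.785 of the beta message. TUBB3 followed with 3.96% ± 0.560, TUBB6 with 0.913% ± 0.203, TUBB2A with 0.681% ± 0.128 and TUBB2B with 0.0759% ± 0.00960. TUBB4B and TUBB did not differ beyond their spread, at 582 ± 7.90 and 566 ± 24.9 CPM per kilobase. TUBB6 and TUBB2A stood at 11.1 ± 2.63 and 8.29 ± 1.67, spreads that include a difference between replicate numbers. With the length of 1 principal transcript in place of all exons, a setting added after the data were seen, TUBB came to 50.5% and TUBB4B to 41.3%. With that length TUBB6 and TUBB2A came to 16.8 ± 3.97 and 8.29 ± 1.67 CPM per kilobase. The other alpha and beta tubulin genes were near absent: TUBA8 averaged 2.07 CPM and TUBAL3 0.551 CPM in untreated cells.

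**Figure D1:**
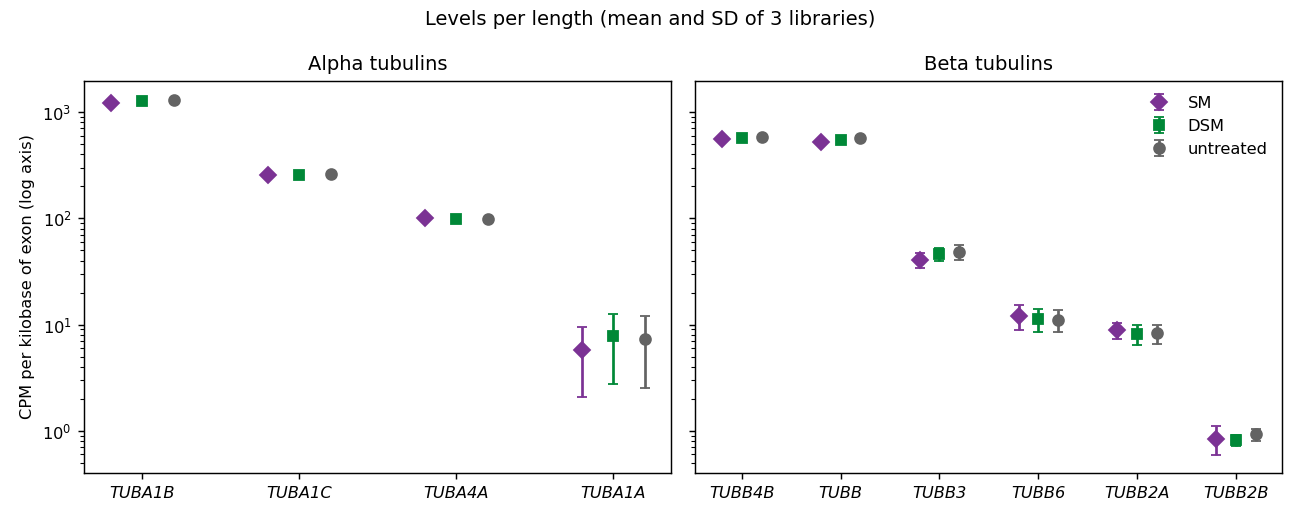
Level of each isotype as CPM per kilobase of exon on a log axis, mean and SD of 3 libraries, with SM left of DSM and untreated. TUBA1B stands at 1284 and TUBB2B at 0.923 CPM per kilobase in untreated cells, and the widest bars belong to TUBA1A.

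The first comparison asked how SM changed tubulin messages relative to untreated cells. With the replicate number as a block, the fitted level with SM was 0.795 of the untreated level for TUBA1A, 0.845 for TUBB3 and 0.919 for TUBB. The block compares libraries of the same number with each other. It was computed because all 9 correlations between same-numbered libraries of different groups, taken over deviations from the group means, exceeded 0.1.

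TUBA1A, an alpha isotype best known from migrating neurons, had 26.1, 8.96 and 9.96 CPM in SM libraries 1 to 3, against 33.2, 11.1 and 12.5 CPM in untreated libraries 1 to 3. The groups overlapped because library 1 was high in both, but SM was lower within each number, with log2 ratios of -0.35, -0.31 and -0.33. With the block the log2 fold change fitted by edgeR was -0.33 (SE 0.059, 95% interval -0.45 to -0.21). Without the block it was -0.33 too, with an SE of 0.634.

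TUBB3, the class III beta tubulin of neurons that many carcinomas also express, had 159, 120 and 124 CPM in SM libraries 1 to 3, against 189, 146 and 142 CPM in untreated libraries 1 to 3. SM was lower within each number (log2 ratios -0.25, -0.28 and -0.20), while SM library 1 lay above untreated libraries 2 and 3. With the block the log2 fold change was -0.24 (SE 0.033, 95% interval -0.31 to -0.17). Without the block it was -0.24 too, with an SE of 0.15 and a 95% interval of -0.58 to 0.10.

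TUBB, one of the 2 main beta isotypes here, had 1798, 1687 and 1753 CPM in SM libraries 1 to 3, against 1970, 1808 and 1925 CPM in untreated libraries 1 to 3. Its highest SM value, 1798 CPM, lay just below its lowest untreated value, 1808 CPM. The share of all genes whose groups separate in this way was not computed. The log2 ratios were -0.13, -0.10 and -0.13, and with the block the log2 fold change was -0.12 (SE 0.033, 95% interval -0.19 to -0.05). Without the block it was -0.12 too, with an SE of 0.049 and a 95% interval of -0.23 to -0.01.

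**Figure D2:**
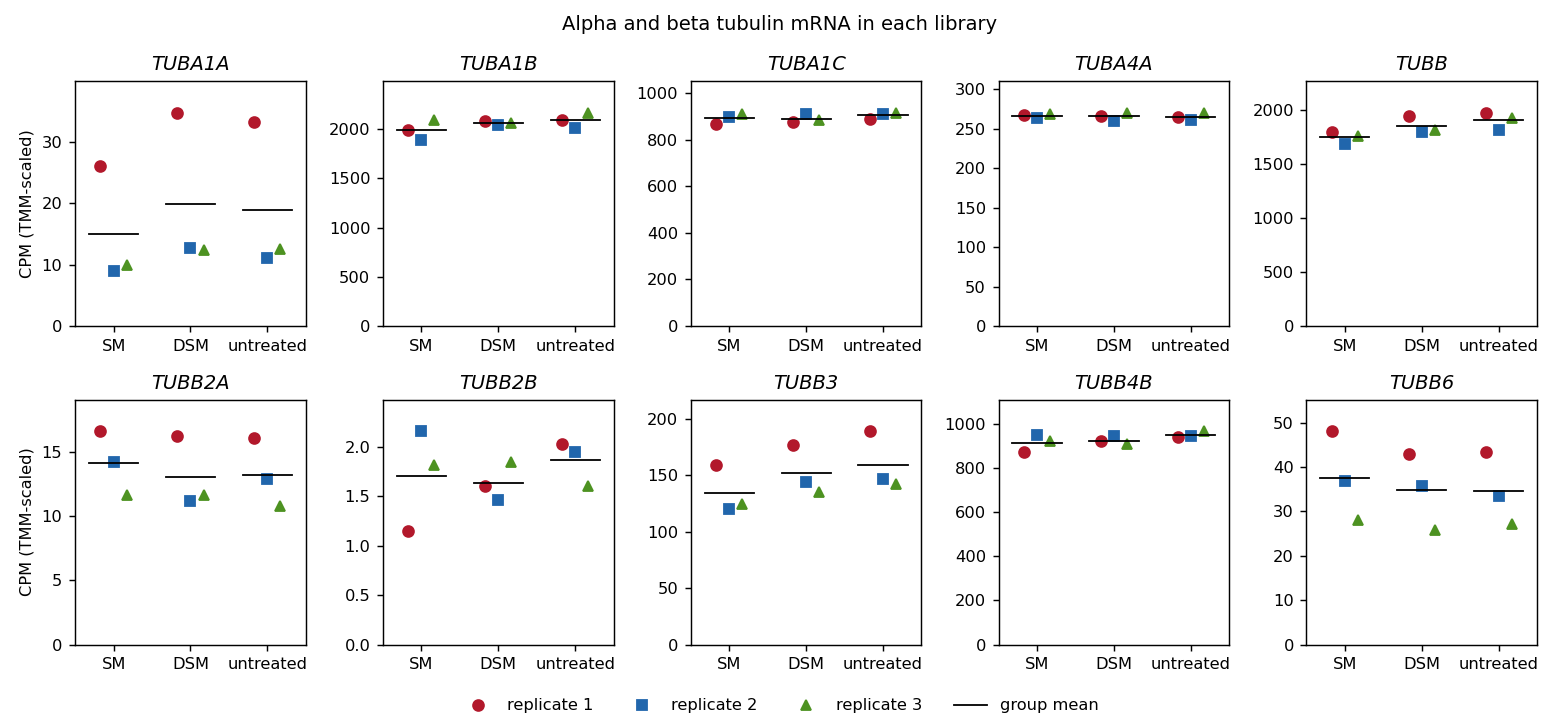
CPM of each member in every library, with SM left of DSM and untreated, replicate 1 as circles, 2 as squares and 3 as triangles, and the group mean as a line. In TUBA1A the 3 circles lie between 26.1 and 34.7 CPM and all other points between 8.96 and 12.7 CPM, whereas the points of TUBA4A lie between 260.1 and 269.8 CPM.

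The remaining 7 members had blocked log2 fold changes between -0.16 and 0.11. TUBA1B, the main alpha isotype, had 1991, 1887 and 2092 CPM in SM libraries 1 to 3, against 2089, 2013 and 2164 CPM in untreated libraries 1 to 3. SM was lower in all 3 pairs, with a log2 fold change of -0.07 with the block (95% interval -0.14 to 0.00). TUBB6, a beta isotype expressed broadly at low levels, had 48.0, 36.7 and 28.1 CPM in SM libraries 1 to 3, against 43.4, 33.4 and 27.2 CPM in untreated libraries 1 to 3. It was higher with SM in all 3 pairs, with a log2 fold change of 0.11 (95% interval 0.02 to 0.21 with the block). Without the block it was 0.12 (95% interval -0.46 to 0.70). TUBB2A was likewise higher in all 3 pairs, at 0.10 (95% interval -0.05 to 0.24 with the block). Over all 9 libraries TUBA1C lay between 869 and 915 CPM, TUBB4B between 873 and 967 CPM and TUBA4A between 260.1 and 269.8 CPM, with SM, DSM and untreated libraries overlapping in each. Against untreated cells TUBA1C, TUBA4A and TUBB4B had blocked log2 fold changes of -0.02, 0.01 and -0.06, with 95% intervals inside -0.13 to 0.07. TUBB2B, with 61 to 131 reads per library, had the widest interval, -0.54 to 0.23 around -0.16.

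A gene was called where its adjusted p, by edgeR's quasi-likelihood test with Benjamini-Hochberg adjustment, was under 0.05. Of the 10 members, 3 were called with the block, all lower, where 2.74% of the 15619 genes were called. Without the block 0 of 10 were called, where 0.0192% of genes were, 3 in all. DESeq2 without the block called 14 genes and no member. In edgeR 365 genes had an unadjusted p under 0.05. Since the rule used this contrast, nothing is read from the members' counts. The median log2 fold change was -0.06 over the members and -0.001 over all tested genes. Of the 10 members 7 were negative and 3 positive, where 49.4% of all tested genes were positive with the block. Alpha message in all came to 3165 ± 112 CPM with SM and 3279 ± 82.0 CPM in untreated cells, and beta message to 2850 ± 43.1 CPM with SM and 3062 ± 109 CPM in untreated cells (SD, n = 3).

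Without all 3 libraries numbered 1, the blocked log2 fold change of TUBA1A was -0.32, and TUBA1A was no longer called. TUBB3 was the 1 member called in that fit, at -0.24. With any 1 SM or untreated library left out, the blocked log2 fold change of TUBB lay between -0.13 and -0.11. TUBB was called in 0 of these 6 fits. Without the block the value of TUBA1A rested on single libraries: its log2 fold change was 0.35 without untreated library 1, -1.00 without SM library 1, -0.07 and -0.10 without SM library 2 or 3, and -0.60 and -0.56 without untreated library 2 or 3.

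With DSM 0 of 10 members were called against untreated cells by edgeR, where 0% of all genes were called in both fits. By edgeR 103 genes had an unadjusted p under 0.05 without the block and 650 with it, and DESeq2 called 0 genes either way. TUBA1A had 34.7, 12.7 and 12.3 CPM in DSM libraries 1 to 3, beside the 33.2, 11.1 and 12.5 CPM of untreated libraries 1 to 3. Only library 1 was high in each group, and the blocked log2 fold change was 0.07 (95% interval -0.04 to 0.19). TUBB3 had 176, 144 and 135 CPM in DSM libraries 1 to 3, beside 189, 146 and 142 CPM in untreated libraries 1 to 3, lower in all 3 pairs (blocked log2 fold change -0.06, 95% interval -0.13 to 0.00). TUBB, with 1939, 1795 and 1813 CPM in DSM libraries 1 to 3, had a blocked log2 fold change of -0.04 (95% interval -0.11 to 0.03). The median over the 10 members was -0.02, and over all tested genes 0.00.

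SM and DSM were compared at the same 120 µM and 48 h, the 1 pair of compounds in the series. TUBA1A and TUBB3 were lower with SM, the aldehyde, than with DSM, the alcohol, within every replicate number. Per library, TUBA1A had 26.1, 8.96 and 9.96 CPM with SM and 34.7, 12.7 and 12.3 CPM with DSM. The groups overlapped and SM was lower within each number (log2 ratios -0.41, -0.50 and -0.31). With the block its log2 fold change was -0.41 (SE 0.059, 95% interval -0.53 to -0.28). Without the block it was -0.40 (SE 0.635, 95% interval -1.87 to 1.07). TUBB3 was lower within each number too (-0.15, -0.26 and -0.13), with a blocked log2 fold change of -0.18 (SE 0.033, 95% interval -0.25 to -0.11). Without the block it was -0.18 too (SE 0.15, 95% interval -0.52 to 0.16).

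TUBB was lower with SM in all 3 pairs, at a blocked log2 fold change of -0.08 (95% interval -0.15 to -0.01). TUBB6 was higher in all 3 pairs, at 0.11 (95% interval 0.01 to 0.20 with the block). Without the block the intervals were -0.19 to 0.03 for TUBB and -0.47 to 0.69 for TUBB6. The blocked intervals of TUBA1B, TUBA1C, TUBA4A and TUBB4B lay within -0.12 and 0.07. By edgeR 2 of 10 members were called with the block, where 3.88% of genes were, and 0 of 10 without it, where 0% of genes were. Nothing is read from these counts either. Without the block 396 genes had an unadjusted p under 0.05 in edgeR and DESeq2 called 11 genes. The comparison shares its SM libraries with SM against untreated, and its DSM libraries with DSM against untreated, so the 3 sets of values are not independent.

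**Figure D3:**
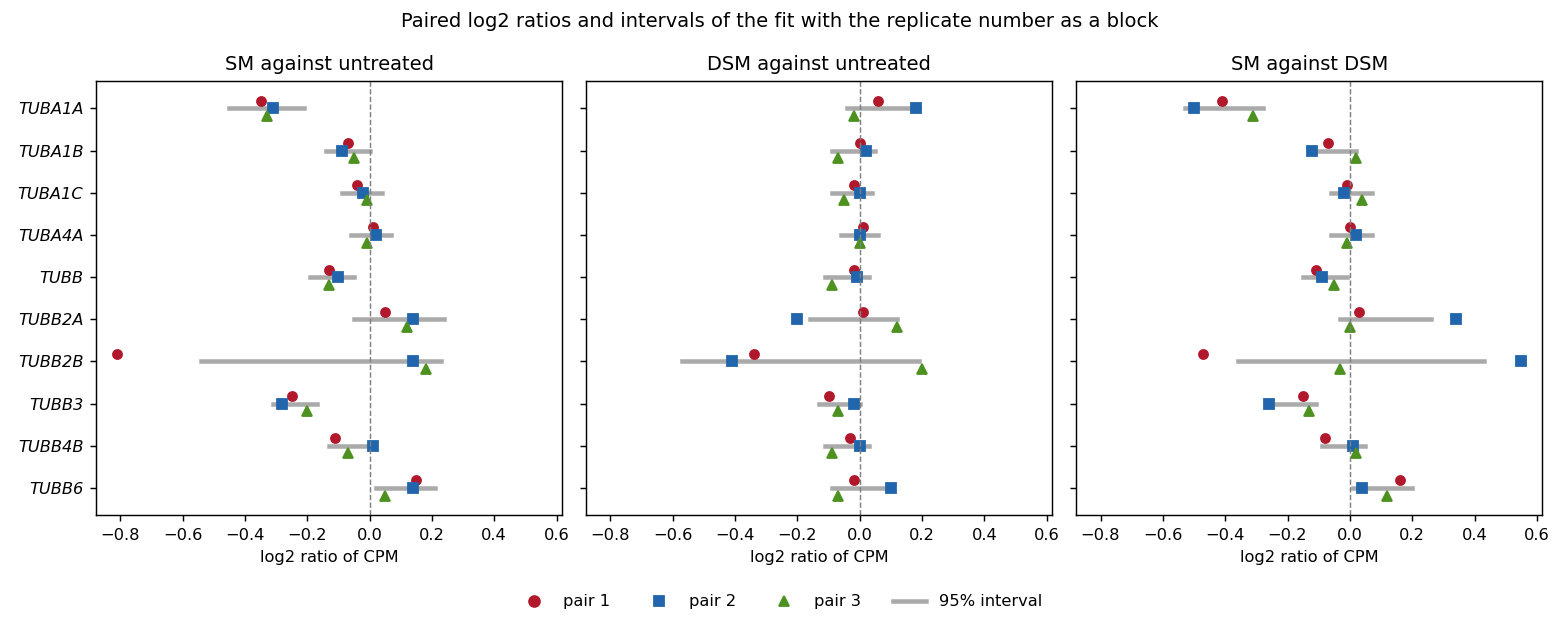
Log2 ratios of CPM within each replicate number (symbols) and the 95% interval of the fit blocked by replicate number (bars), for SM against untreated, DSM against untreated and SM against DSM. TUBA1A and TUBB3 have all 3 symbols below 0 in both SM panels, and their DSM intervals reach or cross 0.

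Genes of the tubulin machinery around these isotypes were compared in the same fits. With the block 0 of 7 tubulin folding cofactors, 0 of 14 prefoldin and CCT genes, 0 of 12 autoregulation genes and 0 of 11 gamma-tubulin ring complex genes were called in any comparison. Counts of 0 in lists of this size lie near the background of 2.74% for SM against untreated, 0% for DSM against untreated and 3.88% for SM against DSM. The most abundant of each were TBCA (SM against untreated, log2 -0.02) and TBCD (0.00), CCT5 (-0.03) and CCT6A (-0.02), CNOT1 (0.00) and CNOT7 (-0.02), and TUBGCP2 (0.01) and TUBGCP3 (0.03). Among 6 tested genes of other tubulins, TUBE1, the epsilon-tubulin of centrioles, rose with SM by 0.25 against untreated cells (SE 0.066, edgeR adjusted p = 0.0408) and by 0.24 against DSM (SE 0.067, edgeR adjusted p = 0.0396), both with the block. TUBE1 averaged 19.2 ± 5.76 CPM with SM, 16.1 ± 3.04 CPM with DSM and 16.1 ± 3.42 CPM in untreated cells (SD, n = 3).

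Of 21 tested tubulin-modifying enzymes, 0 were called against untreated cells, and AGTPBP1, which trims glutamates from tubulin tails, was higher with SM than with DSM (log2 0.49, edgeR adjusted p = 0.0283 with the block). The most abundant, TTLL12 (log2 0.02) and TTL (0.08), were not called with SM against untreated. In DSM against untreated 0 genes of these lists were called, and without the block 0 were called in any comparison.

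Outside the microtubule system, some genes of other lists were called with SM in the fit with the block. In that fit 2.74% of all tested genes were called against untreated cells and 3.88% against DSM. Positive log2 fold changes made up 49.4% of all tested genes against untreated cells and 49.99% against DSM. Without the block 0 genes of these lists were called. Against untreated cells most members of each list were not called. Of 17 actin and intermediate filament genes, 3 fell against untreated cells, KRT19 (log2 -0.18), VIM (-0.17) and ACTG1 (-0.13), and 15 were negative. Against DSM 2 fell, KRT19 (-0.14) and VIM (-0.13). Of 10 tested colon epithelial markers, 2 fell (KRT19 and the microvillus protein VIL1, -0.14) and all 10 were negative. Of 13 targets of ATF4, the transcription factor of the integrated stress response, 6 rose against untreated cells. Among them were STC2 (0.39), SLC7A11 (0.30), PHGDH (0.27) and SESN2 (0.48). Against DSM 8 of the 13 rose, and all 13 were positive in both comparisons. For DSM against untreated cells 12 of the 13 were negative (median log2 fold change -0.10 with the block), and 0 were called. Of 16 G2 and M phase genes 0 were called against untreated cells and 14 were negative (MKI67 -0.12, TOP2A -0.06), and against DSM 2 fell, CENPE (-0.24) and MKI67 (-0.16). The summed G2 and M phase level was 3269 to 3491 CPM in SM libraries, 3541 to 3677 CPM in DSM libraries and 3557 to 3585 CPM in untreated libraries. The part of these differences in the tubulin values was not tested.

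Because TUBA1A and TUBB3 are neuronal isotypes, neuronal markers were examined beside them. Of 13 markers, 9 were under 1 CPM in all 3 group means, and NEFM was at 0 in every library. ELAVL4 and RBFOX3 were at 0 in all DSM and untreated libraries. The sum, 144 to 191 CPM in SM libraries, 149 to 206 CPM in DSM libraries and 144 to 197 CPM in untreated libraries, was mostly SYT1, a synaptic vesicle calcium sensor. SYT1 did not pass with SM against untreated (log2 -0.08, edgeR adjusted p = 0.308 with the block) and was lower against DSM (-0.14, edgeR adjusted p = 0.0222 with the block). Fibroblast markers summed to 12.5 to 24.8 CPM in SM libraries, 16.3 to 25.9 CPM in DSM libraries and 15.6 to 26.9 CPM in untreated libraries, with COL3A1 and DCN at 0 throughout, and LUM fell with SM (-0.41, edgeR adjusted p = 0.0271 with the block). Leukocyte markers summed to 21.0 to 28.99 CPM over all libraries, with 0 of 3 tested genes called. The epithelial markers EPCAM and KRT8 averaged 437 and 6617 CPM in untreated cells, whereas KRT20, LGALS4, GPA33 and CDX1 were under 1 CPM.

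The largest differences among the tubulin values were not between treatments but between replicate numbers. TUBA1A averaged 31.4 ± 4.601 CPM in the libraries numbered 1 (SD, n = 3) and 11.3 ± 1.53 CPM in those numbered 2 and 3 (SD, n = 6), a 2.78-fold difference. The log2 difference of library 1 from the mean of libraries 2 and 3 was 1.46 in SM, 1.47 in DSM and 1.49 in untreated cells. This placed TUBA1A at the 99.9th percentile of all tested genes. The rule that chose the members used this contrast, so nothing is read from the rank.

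TUBB6, TUBB2A and TUBB3 were also higher in the libraries numbered 1. TUBB6 averaged 44.8 ± 2.83 CPM in library 1 (n = 3) and 31.2 ± 4.71 CPM in libraries 2 and 3 (n = 6), with log2 differences of 0.58 in SM, 0.49 in DSM and 0.53 in untreated cells. TUBB2A averaged 16.3 ± 0.267 CPM in library 1 and 12.1 ± 1.263 CPM in libraries 2 and 3, with differences of 0.36 in SM, 0.50 in DSM and 0.45 in untreated cells. TUBB3 averaged 175 ± 14.99 CPM in library 1 and 135 ± 11.0 CPM in libraries 2 and 3, with differences of 0.38 in SM, 0.34 in DSM and 0.39 in untreated cells. Library 3 was below library 2 for TUBB6 in all 3 groups, so libraries 2 and 3 were not alike in every member.

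The abundant isotypes hardly differed by number. Library 1 of TUBB was above both others in each group, with log2 differences of 0.06 in SM, 0.10 in DSM and 0.08 in untreated cells. Library 1 of TUBA1C was below both others in each group, with -0.06 in SM, -0.04 in DSM and -0.04 in untreated cells. The mean log2 difference was 0.01 for TUBA1B, 0.00 for TUBA4A and -0.04 for TUBB4B. Alpha message in all was 3231 ± 68.5 CPM in libraries numbered 1 (n = 3) and 3226 ± 99.99 CPM in the others (n = 6), and TUBA1A was 0.745% ± 0.0937 of it per length in libraries numbered 1 and 0.269% ± 0.0313 in the others. Beta message came to 3053 ± 140 CPM in libraries numbered 1 and 2918 ± 92.5 CPM in the others.

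**Figure D4:**
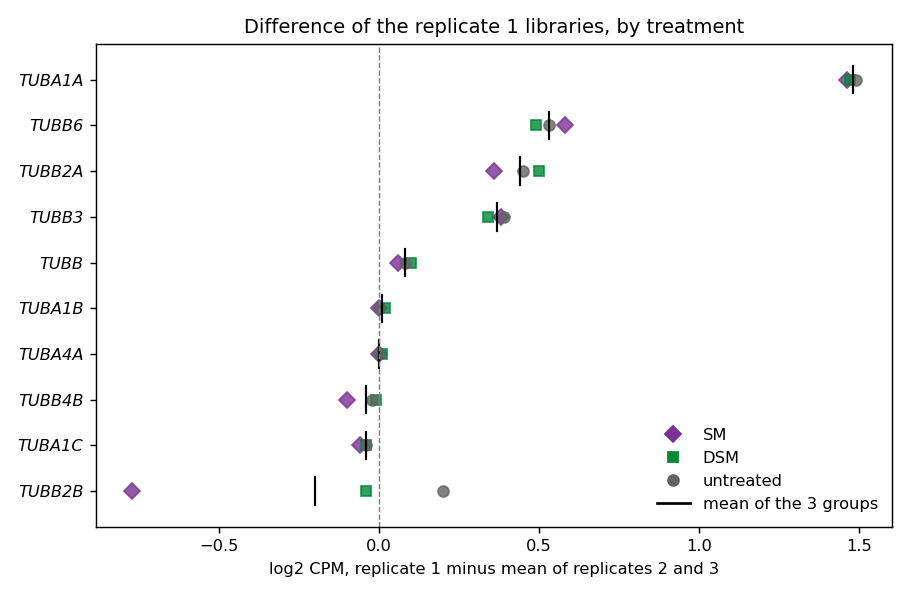
Log2 CPM of the library numbered 1 minus the mean of libraries 2 and 3, for each member and treatment, with the mean over the 3 groups as a vertical tick. TUBA1A lies between 1.46 and 1.49 in all 3 groups, 4 members lie at 0.08 to 0.53 on average, and the points of TUBB2B spread over both sides of 0.

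In all, 5 members (TUBA1A, TUBB, TUBB2A, TUBB3 and TUBB6) had library 1 above both others in all 3 groups, as did 22.7% of tested genes. TUBA1C was below both in all 3, as were 21.7% of tested genes. Since the rule used this contrast, nothing is read from these counts. With library totals in place of TMM, TUBB no longer met the condition in all 3 groups and 4 members remained above.

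Other lists differed by replicate number beside the tubulins. All 17 actin and intermediate filament genes had library 1 above both others in all 3 groups (median log2 difference 0.23; KRT19 0.54, TMSB4X 0.46, VIM 0.44), and their sum was 36107 to 38975 CPM in libraries numbered 1 and 30104 to 32098 CPM in the others. All 13 ATF4 targets had library 1 below both others in all 3 groups (median -0.82), with sums of 1334 to 1454 CPM in libraries numbered 1 and 1972 to 2644 CPM in the others. Of the colon epithelial markers 7 of 10 were above and 1 below, and of the G2 and M phase genes 7 of 16 were above and 4 below. Of 4 tested neuronal markers 1 was above, SYT1 (mean difference 0.42), and 2 were below, SYP (-0.31) and GAP43 (-0.27), with a median of -0.11. The neuronal sum, which is mostly SYT1, was 191 to 206 CPM in libraries numbered 1 and 144 to 171 CPM in the others. Of 3 tested fibroblast markers 2 were above, LUM (0.92) and COL1A1 (0.62), and 0 below, with sums of 24.8 to 26.9 CPM in libraries numbered 1 and 12.5 to 19.3 CPM in the others. Of 3 tested leukocyte markers 1 was above and 1 below, CD68 (-0.48), with sums of 21.0 to 23.2 CPM in libraries numbered 1 and 22.5 to 28.99 CPM in the others. TUBE1 (-0.63) and MAP1B, a neuronal microtubule-associated protein (-0.82), were lower in the libraries numbered 1. Of 31 stathmins and microtubule-associated proteins 13 were above and 9 below, of 14 prefoldin and CCT genes 4 and 2, of 12 autoregulation genes 2 and 2, of 21 modifying enzymes 3 and 6, of 7 folding cofactors 1 and 1, and of 11 ring complex genes 1 and 2. The part of any of these in the tubulin values was not tested.

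The members did not share 1 profile over the 9 libraries. Likeness was measured as the root mean square difference of centred log2 CPM, where 0 is the same profile. The member nearest to TUBA1A, TUBB3, lay 0.534 away, where the profile of TUBA1A itself varied with an SD of 0.763. TUBB2A and TUBB6 were each other's nearest at 0.142, TUBA1B and TUBB at 0.0463, and TUBA1C and TUBB4B at 0.0260. The distance depends on how much the profiles vary. TUBA1C and TUBB4B had SDs of only 0.0278 and 0.0433, so a small distance there need not mean that they move together. Among 9100 tested genes outside the family with at least 10 CPM, those nearest to the members' mean profile were PELI1 (0.0249), TRNP1 (0.0313), SLC16A3 (0.0321), ARPC1B (0.0330) and RAP2B (0.0349). The mean profile itself varied with an SD of 0.139. Each member counts equally in it, so the members that vary most shape it most. TUBA1A had an SD of 0.763 and TUBB6, the next, 0.321. Nearness to the mean profile is therefore not nearness to each member.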

How the data were processed

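Messenger RNA libraries of 9 SW620 cultures were built from TRIzol RNA with a NuGEN Universal Plus kit, per the labels' protocols. The submitters' processing notes list TopHat2 2.1.1, bcl2fastq 2.20.0.422, featureCounts 2.0.0, cutadapt 3.4, DESeq2 1.26.0, FastQC 0.11.9 and MultiQC 1.10.1, and the build hg38. How strand and multi-mapping reads were handled, and which annotation was used, is not given in the sources used here. The authors deposited raw counts, whole reads per gene with no normalization, which were tested here. They also deposited a normalized signal, in which each library's counts are divided by its size factor; it served only as a check.

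The tests used edgeR 4.0.16 with limma 3.58.1 in R 4.3.3: filterByExpr by group (minimum count 10, minimum total 15), TMM (factors 0.981 to 1.02), and 1 robust quasi-likelihood fit of all 9 libraries with group as its only term. They were two-sided, with Benjamini-Hochberg adjustment over 15619 genes at 0.05. A prior count of 2 was added for log2 CPM.

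The replicate numbers pair the libraries: correlations of deviations from group means were 0.227 to 0.582 for same numbers and -0.404 to 0.161 for different ones, so blocked values are given beside the others. Within groups, counts of replicates differed by a chi-square per degree of freedom of 6.89 to 36.5. Replicate 1 was set against replicates 2 and 3 within each group, with no test.

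Alternatives were DESeq2 1.42.0, scaling by its size factors or by library totals, no low-count filter or a stricter one, fits of only the 2 groups compared, leaving out each library or all those numbered 1, and a prior count of 0.5 in replicate differences. Coordinates and promoters come from RefSeq GRCh38.p14. Lengths and coding sequences come from GENCODE 29, read in Python 3.11.15 with Biopython 1.88, pandas 2.3.3 and matplotlib 3.10.9. The fits were tested on simulated data.

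The text names all 10 members, the genes nearest in profile, and up to 4 called genes of each list by smallest p, or its 2 most abundant. The members and lists were chosen with earlier results of these data known. TUBA8, TUBAL3, TMSB4X, MAP1B, EPCAM, KRT8 and the markers given at 0 or under 1 CPM were named after their values were seen. The treatment comparisons of the stathmins and microtubule-associated proteins are not reported here. SYP, GAP43, COL1A1 and CD68 were also named after their values were seen.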

Additional observations from a re-analysis of the deposited data

Results flagged for a closer look

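In TUBB2B the library numbered 1 lay below both others in the SM group and above both others in the untreated group. The log2 difference of library 1 from the mean of libraries 2 and 3 was -0.77 in SM, -0.04 in DSM and 0.20 in untreated cells. The difference between the groups was not tested. TUBB2B had 1.147, 2.16 and 1.82 CPM in SM libraries 1 to 3, against 2.04, 1.95 and 1.60 CPM in untreated libraries 1 to 3, on 61 to 131 reads per library.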

How the results depend on the processing

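For SM against untreated 0 members were called without the replicate block, and 3 with it, also with DESeq2 size factors, library totals, DESeq2 or only the 2 groups compared beside the block. Without the libraries numbered 1, a step named with and without the block, 1 member, TUBB3, was called. Leaving out single libraries gave 0 to 2. For SM against DSM the counts were 0 without and 2 with the block under each of those settings, the one without libraries numbered 1 included, and 0 to 2 when single libraries were left out. For DSM against untreated all counts were 0. Over all genes, SM against untreated gave 3 calls without the block and 428 with it. In the same order, DESeq2 gave 14 and 385, and only the 2 groups gave 0 and 604. Leaving out the libraries numbered 1 gave 73 and 308. SM against DSM gave 0 calls without the block and 606 with it. There DESeq2 gave 11 and 510, and only the 2 groups gave 0 and 394. Leaving out the libraries numbered 1 gave 186 and 627. With the block, leaving out 1 library moved the 428 to 268 (without SM library 3), 187, 169 or 149 (without untreated library 1, 2 or 3) and at most to 569 (without SM library 1). It moved the 606 to 326 (without SM library 3), 286 or 267 (without DSM library 2 or 3) and at most to 846 (without SM library 1). In the replicate difference, 1 member was below both others, and 2 with library totals; leaving out a library or a group gave 1 to 2.

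Without the libraries numbered 1, TUBB2B turned for SM against untreated (0.154, and 0.156 with the block), TUBA4A for DSM against untreated (-0.001 in both) and TUBB4B for SM against DSM (0.015 in both). When single libraries were left out, over both fits, log2 fold changes for SM against untreated reached -1.002 to 0.352 in TUBA1A, -0.003 to 0.022 in TUBA4A, -0.035 to 0.26 in TUBB2A, -0.355 to 0.113 in TUBB2B and -0.099 to 0.313 in TUBB6. For DSM against untreated they reached -0.601 to 0.753 in TUBA1A, -0.042 to 0.016 in TUBA1B, -0.01 to 0.018 in TUBA4A, -0.211 to 0.141 in TUBB2A, -0.366 to 0.017 in TUBB2B, -0.187 to 0.073 in TUBB3 and -0.167 to 0.203 in TUBB6. For SM against DSM they reached -1.072 to 0.269 in TUBA1A, -0.013 to 0.022 in TUBA1C, -0.01 to 0.018 in TUBA4A, -0.013 to 0.308 in TUBB2A, -0.165 to 0.295 in TUBB2B, -0.044 to 0.017 in TUBB4B and -0.107 to 0.286 in TUBB6. The cause was not tested. TUBB2B had 61 to 131 reads per library, and the part of depth in its values was not tested.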
